A study of Homo sapiens with 7 samples.

Results

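Frizzled proteins are the cell surface receptors of secreted Wnt ligands, and the RNA of 8 of their genes (FZD1 to FZD8), of the Wnt coreceptor LRP6 and of GPR125 (now named ADGRA3), an adhesion receptor that has been linked to Wnt signaling, was followed through dasatinib dose escalation in K562 cells. These 10 genes were taken by name from 25702 genes in the count table, and FZD3 and GPR125 were chosen by their counts in these same libraries, in which their RNA appears in the resistant lines. Transcriptome sequencing covered 7 lines of K562, an established chronic myeloid leukemia line that expresses the BCR::ABL1 fusion kinase, with 1 library for each line. The controls were drug naive K562 cells and cells kept in DMSO vehicle. K562 DasR lines were grown long-term in rising dasatinib, an inhibitor of that kinase, and were sampled at 10, 15 and 25 nM (early stage intermediates) and at 50 and 200 nM (late stage intermediates). All 7 lines descend from the same parental cell line, and the DasR lines are successive samples of 1 escalation. Lines grouped together stand in for replicates, so the spread within a group includes dose and may otherwise be technical, and nothing in it repeats the escalation. The groups follow the study, which formed them from the clustering of the same libraries. Total counts were 21007761 in the drug naive and 24037893 in the DMSO line, 27808639, 27844799 and 20059656 at 10, 15 and 25 nM, and 20827519 and 21588772 at 50 and 200 nM.

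A Wnt ligand binds the cysteine-rich outer domain of a Frizzled receptor and draws in LRP5 or LRP6, after which the cytoplasmic protein Dishevelled is recruited and beta-catenin escapes degradation and acts with TCF/LEF factors in the nucleus. Frizzled receptors also feed beta-catenin-independent branches, one of planar cell polarity and another of calcium signaling, and FZD3 and FZD6 are best known for their roles in planar polarity during development. In blood cells, Wnt signaling is known for its part in stem cell self-renewal.

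The Frizzled genes fall into subfamilies by sequence, and reads can be told apart between them. Over aligned residues of the annotated coding sequences, FZD1, FZD2 and FZD7 were 80.5 to 81.4% identical to one another, FZD5 and FZD8 were 71.8% identical, FZD3 and FZD6 were 54.6% identical, and FZD3 and FZD4 were the least alike pair, at 38.7%. Pairs across these groups were as alike as FZD3 and FZD6, with 54.1 to 55.8% between FZD1, FZD2 or FZD7 and FZD5 or FZD8, and FZD4 was at most 51.7% identical to any other. Of all stretches of 75 bases, the read length, 0.103% of those in FZD1 and 0.189% of those in FZD2 occurred in the other gene, and 0.00723% of those in FZD3 occurred in any other gene. The exceptions were FZD4, which shared 17.2% of its stretches with PRSS23 on the opposite strand, FZD8, which shared 6.14%, GPR125, which shared 2.96%, in part with its pseudogene ADGRA3P1, and FZD6, which shared 1.47% with BAALC-AS1 on the opposite strand. PRSS23 had between 0 and 3 counts in every library. The count table does not state whether strand was used in counting, although the library kit was directional.

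What all 8 Frizzled genes share is the Lys-Thr-X-X-X-Trp motif inside the cell, through which Dishevelled is bound, and it was found in 427 of 19769 human coding sequences (2.16%). It is shown here because it is the part of each receptor that passes the signal on. The stretches of FZD3 and FZD6 are not printed here. Capitals mark the codons from lysine to tryptophan, each sequence reads 5′ to 3′ along the coding strand, and positions on hg19 (GRCh37) cover the capitals, from the GENCODE annotation. The motif lies 17 residues before the end of FZD1, FZD2 and FZD7, 33 before that of FZD4, 55 before that of FZD5 and 81 before that of FZD8, whereas FZD3 and FZD6 carry a tail of 159 and 203 residues beyond it.
FZD1, chr7:90896068-90896085, plus strand: tccggcAAGACCCTCAACTCCTGGaggaag
FZD2, chr17:42636683-42636700, plus strand: tcgggcAAGACGCTGCACTCGTGGaggaag
FZD7, chr2:202901024-202901041, plus strand: tcgggcAAGACCCTGCAGTCGTGGcgccgc
FZD5, chr2:208631874-208631891, minus strand: tcgggcAAGACGGTGGAGTCGTGGcggcgt
FZD8, chr10:35928519-35928536, minus strand: tccggcAAGACGCTGGAGTCCTGGcgctcc
FZD4, chr11:86662286-86662303, minus strand: tctgccAAAACTCTTCACACGTGGcagaag

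LRP6 and GPR125 carry other signaling ends. LRP6 signals through Pro-Pro-Pro-Ser/Thr-Pro repeats in its tail, which are phosphorylated once Wnt is bound, and 3 exact repeats were found, the last of them close to the end of the protein. GPR125 ends in Glu-Thr-Thr-Val, a sequence of the kind bound by PDZ domains such as those of DLG1. The capitals below mark the codons of the last LRP6 repeat and of the last 4 residues of GPR125.
LRP6, chr12:12274078-12274092, minus strand: tacccaCCGCCACCCTCTCCCtgtaca
GPR125, chr4:22389331-22389342, minus strand: aaacacGAAACTACTGTG

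Before the receptors were compared, the label of the cells as erythroblasts was checked against markers. All 15 erythroblast markers, among them GATA1, KLF1 and the globin genes, reached 1 CPM, which is 1 count for every 1000000 counts of a library, in 2 lines or more. Their summed level was 4240 and 3850 CPM in the drug naive and DMSO lines, 12700, 14200 and 11100 CPM at 10, 15 and 25 nM, and 7120 and 4980 CPM at 50 and 200 nM, with HBG2 the most abundant in the controls (1210 and 915 CPM) and HBZ above it at 15 nM (2860 against 2280 CPM). The sum was highest in the same 3 early stage lines in which FZD3 and FZD5 were highest, and its part in their levels was not tested. Single markers did not all follow the sum, and 5 of the 15 were higher than control at early stage and 1 at late stage at an edgeR adjusted p under 0.005, beside 7.92% and 3.42% of all genes. GATA1 had 201 and 217 CPM in the controls, 165, 206 and 191 CPM at 10, 15 and 25 nM, and 235 and 295 CPM at 50 and 200 nM, and HBE1 at 10 nM, with 473 CPM, was below both controls. Of 10 fibroblast markers, PDGFRA and THY1 had at most 3 counts in any line, while the summed level fell from 147 and 87.4 CPM in the controls to between 8.06 and 16.3 CPM in the DasR lines, most of it COL6A3 in the controls (139 and 66.1 CPM). Other fibroblast markers did not all follow this sum. COL1A1 had 2.52 and 4.87 CPM in the controls, 5.21, 9.52 and 8.28 CPM at 10, 15 and 25 nM, and 8.74 and 3.52 CPM at 50 and 200 nM. DCN had 0.428 and 0.291 CPM in the controls, 1.19, 1.47 and 0.947 CPM at early stage, and 0.816 and 0.324 CPM at late stage. Of 10 lymphoid or myeloid markers, MS4A1, MPO and ELANE had at most 3 counts, and the summed level, mostly LYZ, was 92.5 and 65.9 CPM in the controls, 117, 35.1 and 57.2 CPM at 10, 15 and 25 nM, and 122 and 133 CPM at 50 and 200 nM. Neural markers summed to between 1.20 and 3.38 CPM in every line, with SYN1 the most abundant in the drug naive line at 2.0 CPM and SNAP25 and STMN2 at no more than 3 counts.

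**Figure D1:**
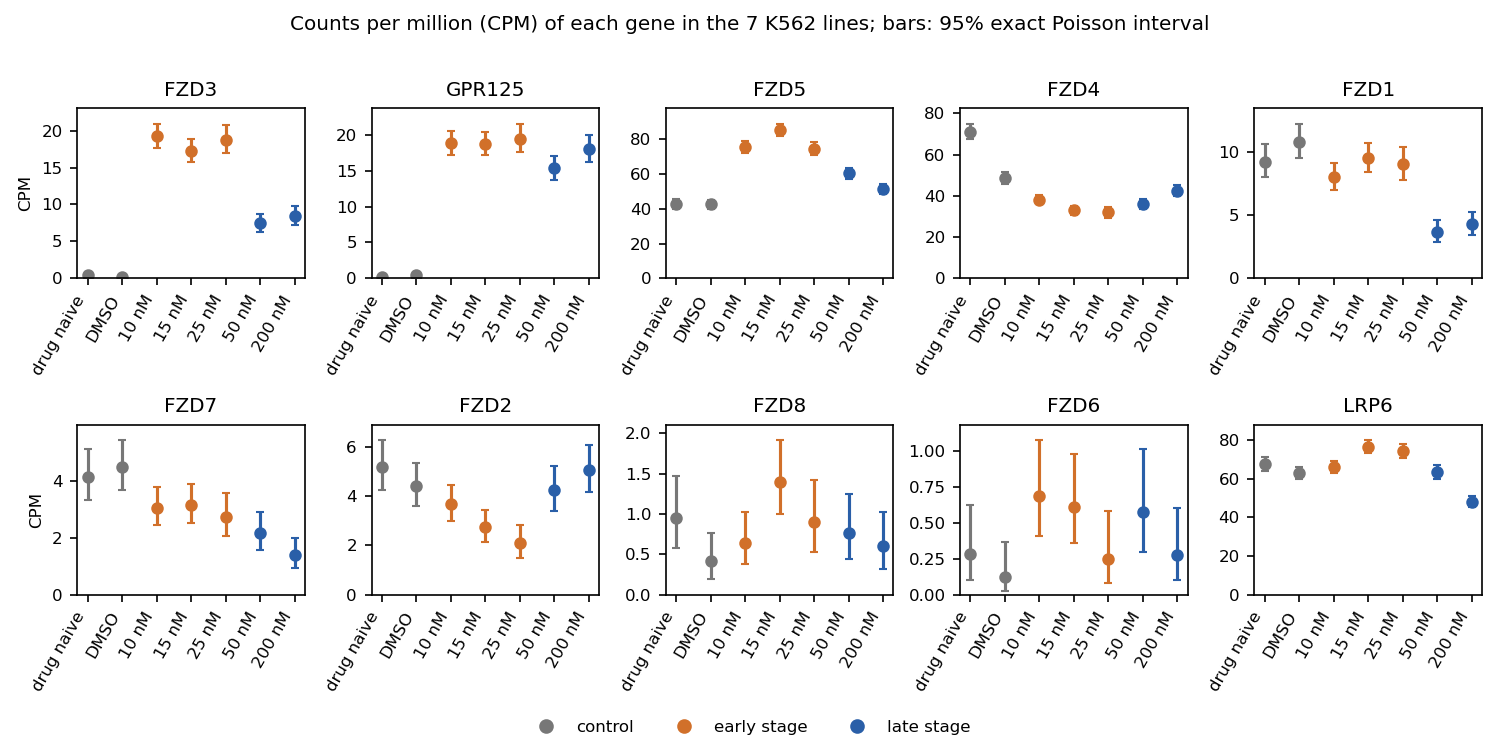
CPM of FZD1 to FZD8, LRP6 and GPR125 (vertical axes, linear from 0, scaled for each gene) in the 7 K562 lines (horizontal axes), with points colored by group and bars for the 95% exact Poisson interval of the count, which covers counting error only. FZD3 and GPR125 lay under 0.5 CPM in both controls and between 7.44 and 19.4 CPM in the DasR lines, and LRP6 stayed between 48.2 and 76.5 CPM.

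FZD3 and GPR125 were close to absent from the controls and present in every DasR line. FZD3 (gene 7976, hg19 chromosome 8 from 28351722 to 28431784) had 0.476 CPM in the drug naive line and 0.208 CPM in the DMSO line, from 10 and 5 counts. It had 19.2, 17.3 and 18.7 CPM at 10, 15 and 25 nM, and 7.44 and 8.43 CPM at 50 and 200 nM. The 3 groups did not overlap, with the early stage lines highest, the late stage lines in between and the controls lowest. As a description of the values for which the gene was chosen, with no test, edgeR's quasi-likelihood fit across all genes gave log2 fold changes (± SE) of 5.74 ± 0.33 for early stage and 4.52 ± 0.34 for late stage against control.

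GPR125 (gene 166647, hg19 chromosome 4 from 22346694 to 22517689, minus strand) had 0.190 CPM in the drug naive line and 0.458 CPM in the DMSO line, from 4 and 11 counts. It had 18.8, 18.7 and 19.4 CPM at 10, 15 and 25 nM, and 15.4 and 18.0 CPM at 50 and 200 nM. Every DasR line was far above both controls, and both late stage lines lay below the early stage lines, the 200 nM line by little. Its fitted log2 fold changes were 5.81 ± 0.30 for early stage and 5.61 ± 0.30 for late stage. Both genes' folds hung on the few control counts: without the drug naive line the early stage value of FZD3 was 6.43 and without the DMSO line 5.20, and that of GPR125 without the DMSO line was 6.54. In bulk RNA a gene carried by fewer cells and a gene at a lower level in each cell cannot be told apart.

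FZD3 and GPR125 were set against each other within each library, as a description, since both genes were chosen from these libraries. Of the summed counts of the 2 genes, FZD3 held 50.6% at 10 nM (95% exact binomial interval 47.5 to 53.6), 48.0% at 15 nM (44.9 to 51.2) and 49.1% at 25 nM (45.5 to 52.7). It held 32.6% at 50 nM (28.4 to 37.1) and 31.9% at 200 nM (28.1 to 35.9). The late stage intervals lay wholly below the early stage ones, and the means were 49.2% ± 1.31 (SD, n = 3) and 32.2% ± 0.495 (SD, n = 2). These intervals cover counting error only. No support is drawn from a test over lines, since an exact permutation test (two-sided) of 3 against 2 lines cannot go below p = 0.2. In the controls the share was 71.4% (41.9 to 91.6) and 31.2% (11.0 to 58.7), too wide to set beside them.

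**Figure D2:**
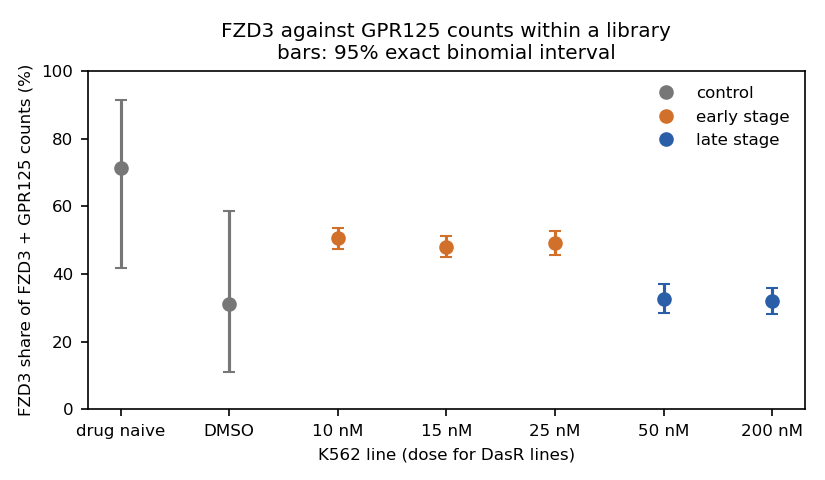
Share of FZD3 in the summed counts of FZD3 and GPR125 (vertical axis, %) in each K562 line (horizontal axis), with bars for the 95% exact binomial interval. The early stage lines sit between 48.0 and 50.6% and the late stage lines at 31.9 and 32.6%, while the intervals of both controls are wide.

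FZD5 and FZD4 were the main Frizzled genes of the controls, and their values lay on opposite sides of the controls in the DasR lines. FZD5 (gene 7855, chromosome 2), a receptor that couples to beta-catenin signaling, had 42.8 and 42.6 CPM in the drug naive and DMSO lines, 75.4, 85.3 and 74.4 CPM at 10, 15 and 25 nM, and 60.3 and 51.2 CPM at 50 and 200 nM. No group overlapped another, with early stage highest, and the fitted log2 fold changes against control were 0.86 ± 0.11 and 0.36 ± 0.12. The late stage value was 0.23 without the 50 nM line and 0.49 without the 200 nM line. FZD4 (gene 8322, chromosome 11), the receptor of both Wnt ligands and the secreted protein norrin, had 71.2 and 48.6 CPM in the controls, 38.2, 32.9 and 32.0 CPM at 10, 15 and 25 nM, and 35.9 and 42.6 CPM at 50 and 200 nM. Every DasR line was below both controls, but the controls themselves lay further apart than the DMSO line and the 200 nM line did. The fitted values were -0.82 ± 0.18 for early and -0.64 ± 0.21 for late stage, and without the drug naive line they were -0.50 and -0.31.

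FZD1, FZD2 and FZD7, the closely related subfamily whose genes each consist of a single exon, were all under the limit of 10 CPM in 2 libraries that was set for testing, and did not move together. FZD1 (gene 8321, chromosome 7) had 9.23 and 10.8 CPM in the controls, 7.98, 9.48 and 9.02 CPM at 10, 15 and 25 nM, and 3.65 and 4.26 CPM at 50 and 200 nM. FZD7 (gene 8324, chromosome 2) had 4.14 and 4.49 CPM in the controls, 3.06, 3.16 and 2.74 CPM at the early stage doses in the same order, and 2.16 and 1.39 CPM at the late stage doses. FZD2 (gene 2535, chromosome 17) had 5.19 and 4.41 CPM in the controls, 3.67, 2.73 and 2.09 CPM at 10, 15 and 25 nM, and 4.23 and 5.05 CPM at 50 and 200 nM. Early stage FZD1 overlapped the controls and late stage FZD1 lay below all other lines, FZD7 was lowest in the late stage lines, and FZD2 was lowest in the early stage lines, with the 200 nM value between those of the controls and the 50 nM value slightly below them. From a second fit with a limit of 1 CPM in 2 libraries, log2 fold changes against control (early, then late stage) were -0.20 ± 0.17 and -1.33 ± 0.19 for FZD1, -0.54 ± 0.25 and -1.27 ± 0.29 for FZD7, and -0.77 ± 0.28 and -0.04 ± 0.31 for FZD2.

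FZD8 and FZD6 were close to the detection limit, where 3 counts correspond to between 0.108 and 0.150 CPM. FZD8 (gene 8325, chromosome 10), the relative of FZD5, ranged from 0.416 CPM in the DMSO line to 1.40 CPM at 15 nM, from 10 to 39 counts, and its 3 groups overlapped. FZD6 (gene 8323, chromosome 8), the relative of FZD3, did not exceed 0.683 CPM, with 3 to 19 counts, and its groups overlapped too. Neither reached 1 CPM in 2 libraries, and neither was tested. FZD6 in the early stage lines thus stayed under 1 CPM where FZD3 was at 17.3 CPM or more.

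LRP6 (gene 4040, chromosome 12), the coreceptor, was among the most abundant of the 10 genes in every group. It had 67.6 and 63.0 CPM in the controls, 66.1, 76.5 and 74.3 CPM at 10, 15 and 25 nM, and 63.4 and 48.2 CPM at 50 and 200 nM. The early stage lines overlapped the controls, the 50 nM line lay with the controls, and the 200 nM line was lowest. Fitted log2 fold changes against control were 0.13 ± 0.14 and -0.25 ± 0.15. The early stage value was 0.20 without the drug naive line and 0.04 without the DMSO line. The late stage value was -0.47 without the 50 nM line and -0.05 without the 200 nM line. Its close relative LRP5, from the list of other receptors, had 79.8 ± 2.38 CPM as control (SD, n = 2), 70.9 ± 2.72 CPM at early stage (SD, n = 3) and 77.7 ± 2.10 CPM at late stage (SD, n = 2).

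Of the 10 genes, 5 (FZD3, FZD4, FZD5, LRP6 and GPR125) reached the limit of 10 CPM in 2 libraries, and 3 of these 5 had an adjusted p (FDR) under 0.005 for early stage against control and 2 of 5 for late stage, all of them higher. Among all 10452 genes tested, 18% (7.92% higher) and 7.98% (3.42% higher) did so in the same comparisons. In the fit at 1 CPM 3 of 8 passed in each comparison, beside 14.3% and 5.52% of all genes. Of these calls, that of FZD1 at late stage was lower, beside 3.02% lower of all genes. FZD3 reached the limit only through the early stage lines and GPR125 only through the DasR lines, and both were chosen for this contrast, so nothing is read from these counts.

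Compared per kilobase of exons, the make-up of Frizzled RNA differed between the groups. On this scale the level of FZD4 was 8.11 ± 2.16 CPM per kilobase in the controls (SD, n = 2) and that of FZD5 6.51 ± 0.0283, a gap within the spread of FZD4, and FZD3 was at 0.0869 ± 0.0482. In the early stage lines FZD5 led with 11.9 ± 0.929 (SD, n = 3), and FZD3 with 4.69 ± 0.255 and FZD4 with 4.65 ± 0.454 did not differ beyond their spread. In the late stage lines the order was FZD5 (8.49), FZD4 (5.31), FZD3 (2.02) and FZD2 (1.23), followed by FZD1, FZD7, FZD8 and FZD6 at 0.574 or less. The share of FZD3 in the summed level of the 8 genes was 0.599% and 0.312% in the drug naive and DMSO lines, 19.8, 17.5 and 20.6% at 10, 15 and 25 nM, and 10.3 and 11.8% at 50 and 200 nM. FZD4 held 47.7 and 38.8% in the controls, 20.9, 17.7 and 18.7% at early stage and 26.4 and 31.7% at late stage. FZD5 held 32.3 and 38.2%, then 46.6, 51.7 and 48.8%, then 49.9 and 42.9%. Exon lengths deposited by the authors were used where given, and per kilobase of coding sequence the share of FZD3 was 11.3, 9.96 and 11.8% at early stage and 5.59 and 6.37% at late stage. The place of FZD3 in the order depended on that length, since per kilobase of coding sequence the early stage level of FZD4 was 21.3 and that of FZD3 9.22. By the exon length of the GENCODE annotation, which for FZD3 is 13786 bases against 3933 in the deposited tables, FZD3 was at 1.34 at early stage and at 0.576 at late stage, where it fell below FZD2 and level with FZD1, and its share was 6.84, 5.95 and 7.16% at 10, 15 and 25 nM and 3.29 and 3.79% at 50 and 200 nM. Summed over the 8 genes, counts made up 134 and 112 CPM in the controls, 149, 153 and 140 CPM at early stage and 115 and 114 CPM at late stage, so that the early stage lines were highest and late stage and DMSO lines lay together.

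**Figure D3:**
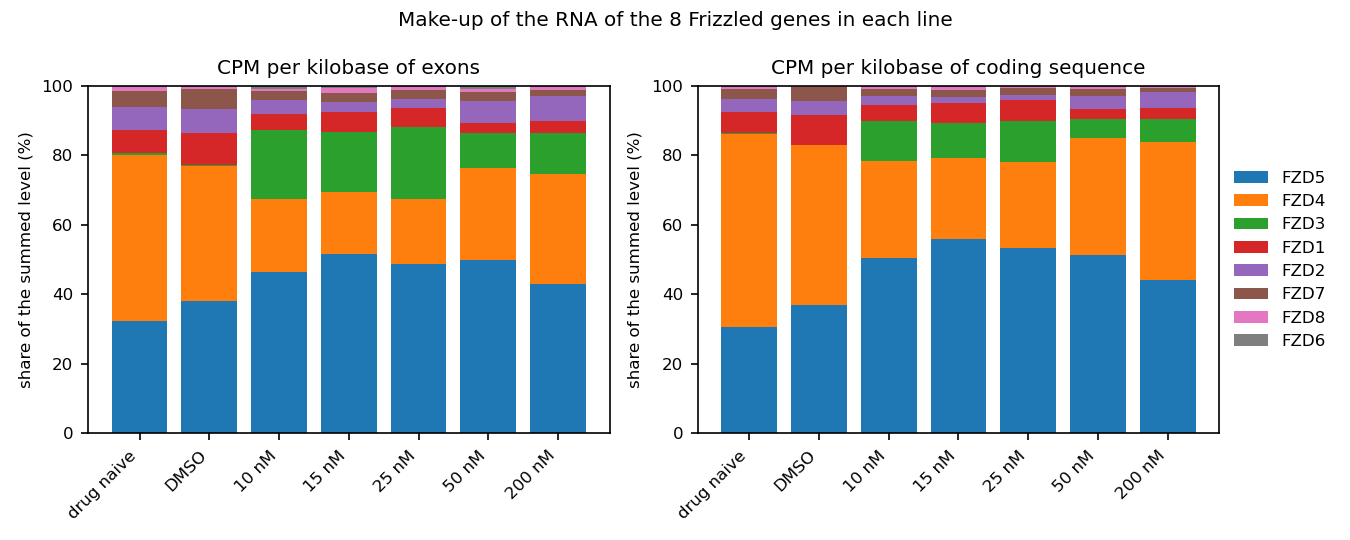
Share of each Frizzled gene (vertical axes, %) in the summed level of the 8 genes in each K562 line (horizontal axes), in CPM per kilobase of exons (left) or of coding sequence (right). FZD3 takes 17.5 to 20.6% of the left bars at 10, 15 and 25 nM and under 1% in both controls, and FZD4 is largest in the controls.

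Late stage lines were then compared directly with early stage lines, which leaves the controls out of the contrast. FZD3, FZD1 and FZD5 were lower in the late stage lines, with log2 fold changes of -1.22 (SE 0.24, 95% interval -1.78 to -0.67), -1.13 (SE 0.18, -1.55 to -0.71) and -0.50 (SE 0.11, -0.76 to -0.24). Their adjusted p-values by edgeR's quasi-likelihood test were 0.0238, 0.0184 and 0.0323, past 0.05 but not past the threshold of 0.005 used by the study. FZD3 was chosen by its counts in these same lines, so its values here are a description and no support is drawn from its test. FZD3 reached the limit of 10 CPM only through the early stage lines, in which it was higher, and in the fit at 1 CPM, a limit that its early and late stage lines all passed, it had a log2 fold change of -1.19 (SE 0.22, 95% interval -1.71 to -0.67) and an FDR of 0.0234. At 0.005 none of the 10452 genes passed, with a smallest FDR of 0.0167 and 3450 genes at an unadjusted p under 0.05, while limma's voom method called 0 genes and DESeq2 called 1135. At 0.05 in the fit at 1 CPM, 3 of 8 members passed, beside 11.5% of all genes. All 3 were lower, which was so for 5.44% of all genes. Since FZD3 is among them, nothing is read from this count. Both late stage lines lay below every early stage line for FZD3, FZD1 and FZD5, but also for FZD7, LRP6 and GPR125. For FZD2 both lay above every early stage line. How many of all genes separate in this way was not counted, so nothing is read from it.

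These calls at 0.05 depended on single lines and, for FZD5, on the lines in the fit. FZD3 had an FDR of 0.0520 without the 15 nM line, 0.0708 without the 25 nM line and 0.101 without the 200 nM line, and between 0.0351 and 0.0454 without any of the other 4. FZD1 had an FDR of 0.0868 without the 200 nM line and stayed under 0.05 without any other line. FZD5 kept an FDR under 0.05 only when the 10 nM or the 50 nM line was left out, and reached 0.175 without the 200 nM line, and it had an FDR of 0.0564 when only the early and late stage lines entered the fit. In the fit at 1 CPM the FDR of FZD3 was over 0.05 without the same 3 lines, at 0.0551, 0.0691 and 0.105. Leaving out either late stage line leaves 1 line in that group. Among all genes, calls at 0.05 were lost without the 200 nM line and became more numerous without the 50 nM line. With 1 line left out, the log2 fold changes themselves ranged, at 10 CPM for FZD3 and FZD5 and at 1 CPM for FZD1, from -1.30 to -1.14 for FZD3, from -1.25 to -1.02 for FZD1 and from -0.63 to -0.37 for FZD5.

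GPR125 had a log2 fold change of -0.20 (SE 0.20, 95% interval -0.66 to 0.27, FDR 0.523), an interval that includes no change and lies just above that of FZD3, and the difference between these genes was not tested. FZD4 had 0.18 (SE 0.19, -0.25 to 0.62, FDR 0.527). For LRP6 the value was -0.38 (SE 0.14, -0.71 to -0.05, FDR 0.112), for FZD7 -0.73 (SE 0.27, -1.35 to -0.10, FDR 0.114) and for FZD2 0.73 (SE 0.28, 0.07 to 1.39, FDR 0.127). None of these 3 passed 0.05 after adjustment, although their unadjusted intervals lie to 1 side of 0. The value of LRP6 was -0.60 without the 50 nM line and -0.18 without the 200 nM line. That of FZD7 was -1.08 and -0.44 in the same fits.

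**Figure D4:**
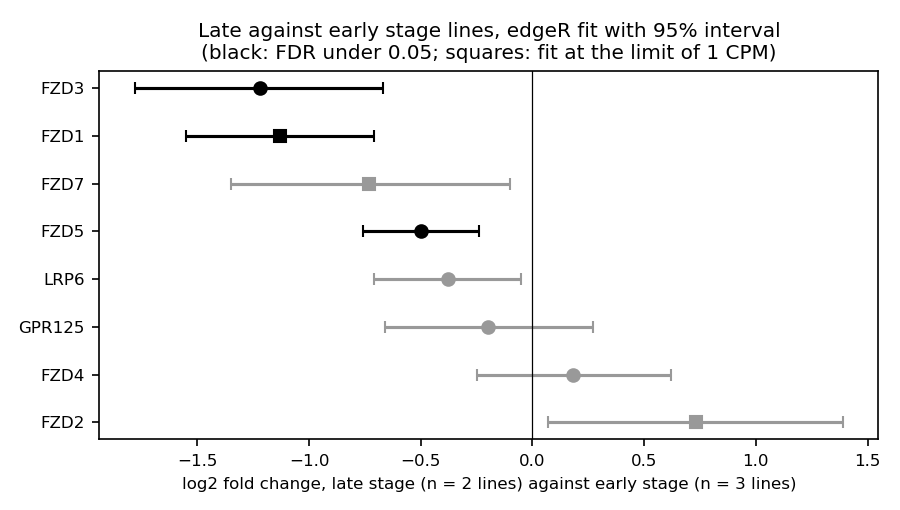
Log2 fold change of late stage (n = 2 lines) against early stage lines (n = 3 lines) for the 8 tested genes (horizontal axis), with 95% intervals from edgeR's fit, circles for the limit of 10 CPM and squares for 1 CPM. FZD3, FZD1 and FZD5, in black, have an FDR under 0.05 and lie left of 0, and the intervals of GPR125 and FZD4 include 0. FZD3 and GPR125 were chosen by their counts in these libraries.

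Genes with the pattern most like that of FZD3 and of GPR125 were sought over the 7 lines, by the root mean square difference of log2 CPM after the control mean was subtracted. For FZD3 these were ENAH (0.50), SMO (0.56), COBL (0.61), ADCY9 (0.62) and GPR125 (0.80), and for GPR125 they were ENAH (0.68), SMO (0.76), FZD3 (0.80), LGALSL (0.92) and KANK1 (1.02). Both genes were chosen for this pattern, so their likeness to each other is a description only. ENAH, a regulator of actin filaments, had 6.14 and 5.41 CPM in the controls and between 152 and 200 CPM in the DasR lines. SMO, the Hedgehog pathway receptor and a member of the same receptor class as the Frizzled proteins, had 0.286 and 0.166 CPM in the controls, 21.1, 26.1 and 15.3 CPM at 10, 15 and 25 nM, and 10.3 and 5.37 CPM at 50 and 200 nM. Each was higher in every DasR line than in both controls, which is the pattern by which ENAH and SMO were sought and so is a description only. The 5 genes FZD3, GPR125, ENAH, SMO and COBL lie on chromosomes 8, 4, 1, 7 and 7.

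The genes beside FZD3, GPR125 and LRP6 on the chromosome were read for comparison, with log2 fold changes and FDR from the fit at 1 CPM. EXTL3, next to FZD3 on the side of higher coordinates, had between 45.4 and 53.6 CPM in all 7 lines. FBXO16 on the other side had 0 and 0.0416 CPM in the controls, 0.396, 0.503 and 0.199 CPM at 10, 15 and 25 nM, and 0.288 and 1.62 CPM at 50 and 200 nM. Every DasR line of FBXO16 was above both controls, but at a low level. Its values at 25 and 50 nM are close to the detection limit, where 3 counts correspond to 0.15 and 0.144 CPM. Of the next neighbors, ZNF395 ranged from 33.9 to 71.0 CPM and INTS9 from 43.2 to 88.2 CPM, while HMBOX1, a transcription factor, fell from 132 and 118 CPM in the controls to between 70.2 and 76.9 CPM at early stage (log2 fold change -0.76, edgeR FDR 0.00131). PNOC, the third on the lower side, had at most 0.0926 CPM. Next to GPR125, KCNIP4 had between 2.87 and 4.99 CPM and GBA3 at most 0.619 CPM. PACRGL had between 9.62 and 12.2 CPM in the controls and early stage lines and 19.0 and 19.2 CPM at 50 and 200 nM, with a log2 fold change of 0.87 against control (edgeR FDR 0.00626) and of 0.73 against early stage (FDR 0.021) in the fit at 1 CPM, neither past 0.005. PPARGC1A had at most 0.611 CPM. SLIT2, a secreted guidance protein, had 5.71 and 8.74 CPM in the controls and at most 0.463 CPM in the DasR lines. DHX15, an RNA helicase, had 155 and 161 CPM in the controls and between 254 and 288 CPM in the DasR lines. Around LRP6, ETV6 had 38.2 and 36.5 CPM in the controls and between 19.8 and 22.3 CPM at early stage (log2 fold change -0.83, FDR 0.00152), and DUSP16 had between 41.3 and 49.3 CPM in all lines. MANSC1 ranged from 8.13 to 14.4 CPM and BORCS5 from 7.59 to 11.0 CPM. BCL2L14 had at most 0.349 CPM and PRB2 at most 0.0926 CPM.

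The rest of the Wnt pathway was read from lists of 151 other genes, of which 103 reached 1 CPM in 2 lines, 27 had at most 3 counts in every line and 80 reached the limit of 10 CPM. For early stage against control, 7 of the 80 were higher and 9 lower at an FDR of 0.005 by edgeR's quasi-likelihood test, beside 7.92% higher and 10.1% lower of all genes. For late stage, 3 were higher and 2 lower, beside 3.42% and 4.56%. The higher genes of both comparisons include SMO, a Hedgehog pathway receptor. The median log2 fold changes of the 80 were 0.00 and 0.03, and those of all genes 0.003 and -0.004. Without the drug naive line, 0 higher genes and 1 lower gene passed the threshold for early stage, without the DMSO line 1 and 2, and without the 25 nM line 1 and 2, while all genes past it fell to 1.84%, 4.51% and 5.12%. Late stage calls also fell when a control line was left out, and so did those among all genes. The number of lower genes was 4 and 3 in place of 9 for early stage without the 10 and 15 nM lines, where 10.8% and 8.46% of all genes passed. For late stage it was 0 in place of 2 without the 10, 15 or 25 nM line, where 5.66%, 5.79% and 2.65% of all genes passed. These shares count either direction.

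Ligands were low throughout. Of 19 Wnt ligand genes, 6 reached 1 CPM in 2 lines and only WNT5B reached 10 CPM, with 9.08 ± 0.0162 CPM in the controls, 7.87 ± 4.17 at early stage and 11.8 ± 0.700 at late stage (SD; n = 2, 3 and 2), and it did not pass the test. WNT3, WNT7B, WNT10B, WNT2B and WNT4 had group means between 0.357 and 4.14 CPM. WLS, which carries Wnt ligands to the cell surface, had 1 count in 1 library and none in the others, which allows up to 0.143 CPM in the drug naive line, and PORCN, which attaches their lipid, had 5.98 ± 0.781 CPM as control, 3.0 ± 0.851 at early stage and 2.45 ± 0.205 at late stage.

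Of 19 other receptors and their regulators, 8 were tested, with 3 higher and 1 lower at early stage, beside 7.92% and 10.1% of all genes, and 2 higher at late stage, beside 3.42%. SMO and ZNRF3 are counted as higher in both comparisons but reached the limit only through the DasR lines, in which they were higher. SMO is a receptor of the Hedgehog and not of the Wnt pathway. Apart from SMO, the higher genes were ZNRF3 and PTK7 at early stage and ZNRF3 at late stage. SMO was under 1 CPM in both controls, so it is given by its levels above. ZNRF3, a ubiquitin ligase that removes Frizzled receptors from the surface, rose from 5.93 ± 0.0328 CPM in the controls to 13.4 ± 0.496 at early and 15.5 ± 0.693 at late stage (log2 fold changes 1.16 and 1.40, FDR 0.00114 and 0.00156 in the fit at 1 CPM, which all its lines passed), whereas its relative RNF43 was under the limit at 6.89, 3.66 and 1.24 CPM. PTK7, a Wnt coreceptor of the planar polarity branch, rose from 15.8 ± 3.63 to 48.0 ± 5.37 CPM in the early stage lines (1.59, FDR 0.00421) and was at 23.5 ± 9.56 CPM in the late stage lines. KREMEN1, which with Dickkopf proteins takes LRP6 from the surface, fell from 35.2 ± 5.67 to 17.5 ± 0.491 CPM in the early stage lines (-1.03, FDR 0.00455, but 0.00542 in the fit at 1 CPM) and was at 33.1 ± 9.26 CPM in the late stage lines. ROR2 and RYK, alternative Wnt receptors, did not pass 0.005, with 34.4, 33.6 and 59.0 CPM for ROR2 and 26.3, 22.6 and 27.9 CPM for RYK in control, early and late stage lines. ROR1 and GPR123, a relative of GPR125, had no count in any line, and FZD10 had 1. FZD9 had group means of 0.345, 0.760 and 0.770 CPM. GPR124, the other relative, had 4.61 ± 0.752, 8.47 ± 4.15 and 1.07 ± 0.794 CPM in the 3 groups.

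In the cytoplasm, 22 of 27 genes were tested, and 3 rose and 3 fell in the early stage lines, while edgeR called 0 at late stage, where 11 had an unadjusted p under 0.05 and DESeq2 called 7 and voom 0. Of all genes, 18% and 7.98% were called in either direction in these comparisons. CTNNB1, which encodes beta-catenin, rose from 193 ± 3.19 to 362 ± 45.2 CPM (log2 fold change 0.89, FDR 0.00129), and so did genes of the complex that degrades it, APC from 66.3 ± 3.89 to 186 ± 14.8 CPM (1.47, FDR 0.00212) and FAM123B from 10.4 ± 1.18 to 17.8 ± 0.814 CPM (0.77, FDR 0.00382). FAM123B was over 10 CPM in only 1 control and so reached the limit through the DasR lines, and in the fit at 1 CPM its FDR was 0.00402. CSNK1E, a kinase acting on Dishevelled and LRP6, fell with a log2 fold change of -1.06 (FDR 0.00258), TNKS, which destabilizes axin, with -0.99 (FDR 0.00222) and FBXW11, which targets beta-catenin for degradation, with -0.51 (FDR 0.00247). Genes that raise and genes that lower beta-catenin thus stood on both sides. DVL1, DVL2 and DVL3, the 3 Dishevelled genes whose proteins bind the motif printed above, did not pass, with log2 fold changes of -0.22, 0.00 and -0.09, nor did AXIN1 (0.00) and GSK3B (0.14).

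In the nucleus edgeR called 0 of 11 tested genes in either comparison (4 and 5 at an unadjusted p under 0.05 for early and late stage, 1 and 1 by DESeq2, and 0 by voom), beside 18% and 7.98% of all genes, among them LEF1 (47.8, 44.9 and 36.8 CPM in control, early and late stage lines) and TCF7 (12.6, 18.1 and 13.7 CPM). Under the limit, TCF7L2 had 4.62, 4.61 and 3.43 CPM. TCF7L1 had 0.838, 0.762 and 0.519 CPM. Of the 9 tested genes known as beta-catenin targets, 1 was higher in the early and late stage lines, ZNRF3, which is also counted among the receptor regulators and reached the limit only through the DasR lines. Of all genes, 7.92% and 3.42% were higher in these comparisons. MYC had 233 ± 3.37, 275 ± 9.83 and 253 ± 14.6 CPM and did not pass. CCND1, the cyclin D1 gene, had 17.3 and 13.3 CPM in the controls, 2.37, 1.29 and 15.0 CPM at 10, 15 and 25 nM, and 43.2 and 106 CPM at 50 and 200 nM, and did not pass against control. AXIN2, a feedback inhibitor and widely used readout of beta-catenin signaling, was under the limit, with 5.24 and 5.49 CPM in the controls, 2.84, 6.57 and 6.63 CPM at 10, 15 and 25 nM, and 1.15 and 0.602 CPM at 50 and 200 nM, so that the late stage lines lay below all others.

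Of 17 tested polarity and scaffold genes, 1 was higher and 2 were lower at early stage and 1 was lower at late stage. Of 14 tested calcium branch genes 3 were lower at early stage and 1 was higher and 1 lower at late stage, beside 18% and 7.98% of all genes called in either direction. DAAM1, a Dishevelled-bound regulator of actin, rose from 22.0 ± 1.49 to 48.2 ± 4.07 CPM in the early stage lines (log2 fold change 1.12, FDR 0.00119), and CELSR3, a core polarity receptor that works with FZD3 in axon guidance, fell from 15.4 ± 0.741 to 3.59 ± 0.527 CPM (-2.12, FDR 0.00108) and was lower in the late stage lines too (-1.82, FDR 0.00477). CELSR3 reached the limit of 10 CPM only through the controls, and in the fit at 1 CPM, which all its lines passed, its FDR was 0.001 and 0.00476. DLG4, which was under 10 CPM in all early stage lines and reached the limit through the others, fell in the early stage lines (-1.29, FDR 0.00259, and 0.00292 in the fit at 1 CPM), while DLG1, the scaffold named above, had 112, 123 and 123 CPM in the 3 groups. Among the calcium branch genes, NLK (-1.0, FDR 0.000262), PLCB2 (-1.66, FDR 0.00266) and PPP3R1 (-0.46, FDR 0.00380) fell in the early stage lines. In the late stage lines PPP3R1 was lower too (-0.59, FDR 0.00382, but 0.00522 in the fit at 1 CPM), and PPP3CA, the catalytic subunit of the calcineurin whose regulatory subunit PPP3R1 encodes, rose from 13.7 ± 0.546 to 77.9 ± 5.39 CPM (2.49, FDR 0.000938). Between late and early stage lines edgeR called 0 of the 80 genes at 0.005, with 30 at an unadjusted p under 0.05, while DESeq2 called 15 and voom 0. At 0.05, 8 were higher and 6 lower, beside 6.60% and 6.10% of all genes.

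**Figure D5:**
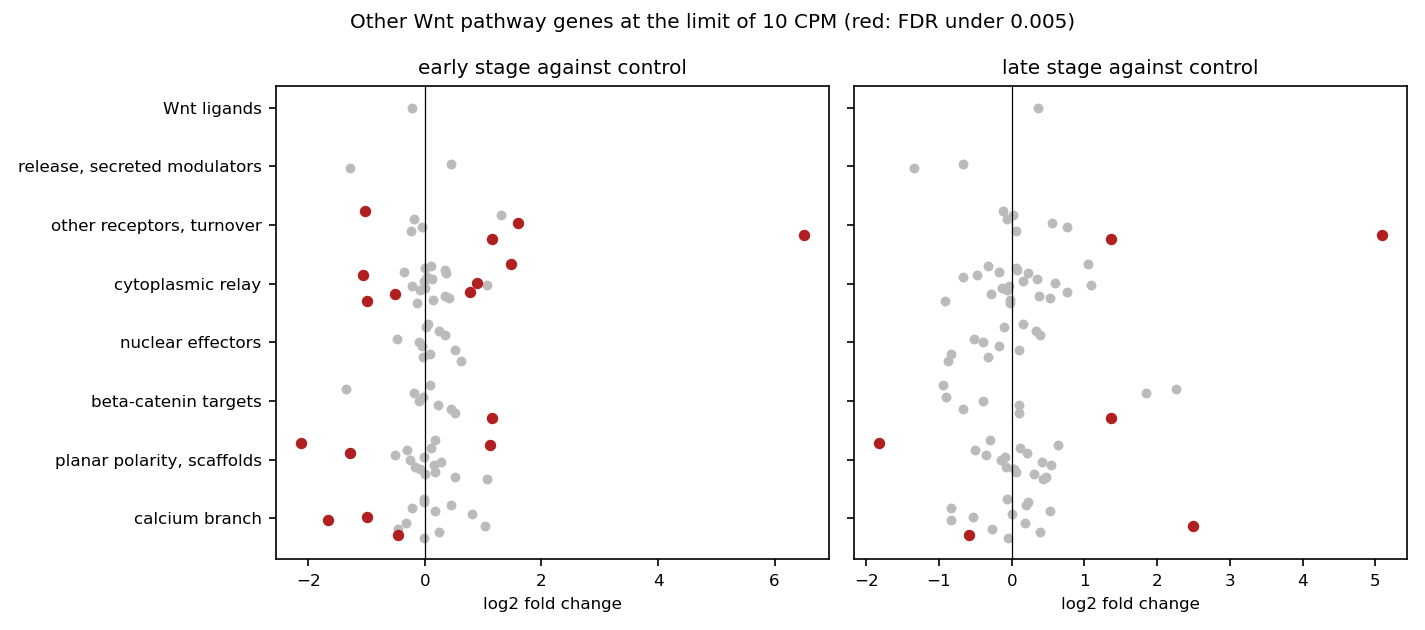
Log2 fold changes of the 80 other Wnt pathway genes at the limit of 10 CPM (horizontal axes), in rows by role, for early stage (left) and late stage lines (right) against control, with genes at an FDR under 0.005 in red and a gene in 2 lists drawn in each. Red points stand on both sides of 0. The point farthest to the right is SMO, whose fitted value rests on 6 and 4 counts in the controls.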

How the data were processed

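RNA of 7 K562 lines was sequenced as 75-base read pairs after ribosomal RNA depletion, 1 library per line. Reads were aligned by the authors with STAR on hg19, and the raw counts per gene from featureCounts were deposited; versions are not given in the sources used here. The authors also made tables of their own comparisons with edgeR and limma and deposited them with log2 fold changes, mean log2 levels, p-values and FDR, which were not used. Only gene symbols and exon lengths were taken from these tables. Positions and coding sequences came from GENCODE on GRCh37, and gene symbols for 23696 of 25702 IDs from RefSeq.

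Genes with at least 10 CPM in 2 libraries (10452) were normalized by TMM before testing with glmQLFit and glmQLFTest of edgeR 4.0.16 (R 4.3.3), 1 coefficient per group, all 7 libraries, Benjamini-Hochberg adjustment. A second fit at 1 CPM (14899 genes) served members under the limit, the neighboring genes and the other values marked as from that fit. Standard errors are the log2 fold change over the root of F. Means and SD are over CPM on total counts. Scripts were tested on simulated data. Alternatives were limma 3.58.1 voom, DESeq2 1.42.0, other scaling, filters and thresholds, and leaving out each line. Exact Poisson and binomial intervals cover counting error only (SciPy 1.17.1), and those of log2 fold changes come from edgeR's fit. Lines in a group differed beyond sampling noise (chi-square per degree of freedom 15.5 to 48.3 over 5 pairs).

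The members and lists were chosen with earlier results of these data known. Genes named are the 10 members, up to 4 called genes per list and direction, a set of core pathway genes, the 5 most alike and the 3 nearest on each side. Some marker genes are not reported here by name.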

Additional observations from a re-analysis of the deposited data

How the results depend on the processing

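No paired analysis was possible, since there is 1 library for each line and the DasR lines are successive samples of 1 escalation. For members, no log2 fold change in the direct comparison of late with early stage lines changed sign under any alternative, and the number past an FDR of 0.005 was 0 at both limits, but 2 (FZD3 and FZD5) and 1 (FZD1) by DESeq2 and likewise 2 and 1 at an FDR of 0.05. Pathway genes higher in early stage lines numbered 7, but 14 by DESeq2, 11 without a filter, 17 at an FDR of 0.05 and 0 to 9 with 1 line left out; lower genes numbered 9, and 1 to 9 with 1 line left out. For late stage lines 3 were higher, but 13 by DESeq2, 5 without a filter, 1 with only the groups compared in the fit, 14 at an FDR of 0.05 and 0 to 3 with 1 line left out. Lower were 2, but 7 by DESeq2, 9 at an FDR of 0.05, 1 at 1 CPM, 0 by library totals alone, 0 with only the groups compared and 0 to 1 with 1 line left out. Between late and early stage lines 0 passed, but 15 by DESeq2, 14 at an FDR of 0.05, 2 without a filter and 0 to 2 with 1 line left out. The causes were not tested, beyond the fewer samples of the fits with a line left out. Where a group was left with 1 line, that line is assumed to vary like the other groups. Levels per kilobase moved with the length used: late stage FZD3 was at 2.02 by deposited, 3.97 by coding and 0.576 by GENCODE exon length. FZD6 and FZD8 rested on 3 to 39 counts per line and entered only the fit without a filter.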

Other observations

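Among other genes of the Wnt pathway, in edgeR's fit at 1 CPM with Benjamini-Hochberg adjustment, AXIN2 was lower in late than in early stage lines by a log2 fold change of -2.57 (SE 0.48, FDR 0.0228) and GPR124 by -2.95 (SE 0.60, FDR 0.0282), neither past 0.005. WNT2B was between 1.40 and 2.59 CPM in the early stage lines and between 0.185 and 0.528 CPM in all other lines. CCND1 passed the limit of 10 CPM, and in the fit at that limit it was higher in late than in early stage lines by a log2 fold change of 3.62 (SE 0.91, FDR 0.0440), with the 25 nM line, at 15.0 CPM, within the range of the controls. These genes were picked out after their values were seen, so the values are a description and no support is drawn from the tests. At 200 nM AXIN2 (0.602 CPM) and GPR124 (0.51 CPM) were under the limit of 1 CPM that their early stage lines passed. CCND1 at 10 and 15 nM (2.37 and 1.29 CPM) was under the limit of 10 CPM that its late stage lines passed.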
